A study of Mus musculus with 55 samples.

Results

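The genes described here encode the proteasome, its regulators and its assembly factors. They were chosen by symbol: every row of the RPKM table (reads per kilobase and per mega-read mapped) that begins with Psm, a letter from a to g and a number, leaving out pseudogene symbols. This gave 50 of the 24453 genes in the table, and 47 of the 50 reached a mean of 0.5 RPKM over all libraries and were tested. Psmc3ip matched by symbol although it is a meiotic recombination factor and not a proteasome subunit, so 49 members belong to the proteasome by role.

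The proteasome is the protease that degrades ubiquitin-tagged proteins. Its barrel, the 20S core, is built of alpha rings and beta rings, and the 19S cap recognises, unfolds and feeds substrates into it. In cells exposed to interferon gamma, and constantly in many blood cells, the catalytic beta subunits Psmb5, Psmb6 and Psmb7 are replaced in new particles by Psmb8, Psmb9 and Psmb10, which form the immunoproteasome and favour cleavage that yields peptides for MHC class I molecules. In muscle the ubiquitin-proteasome system removes contractile protein, and its genes are known for rising in atrophy.

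RNA was sequenced in 55 libraries from mouse flexor digitorum brevis (FDB, a foot muscle), extensor digitorum longus (EDL, a fast muscle of the lower leg) and soleus (SOL, a slow one). The mice were wild type (wt) or mdx, whose Dmd gene for dystrophin is mutated in every cell, and were 2 or 5 months old. The labels name no strain, sex or treatment. FDB gave 3 mdx and 4 wt libraries at 2 months and 7 and 4 at 5 months, EDL gave 4 and 4, then 6 and 4, and SOL 4 and 4, then 7 and 4. The study asked how the degree and time course of disease differ between muscles, so mdx was set against wt in each muscle at each age. These are whole muscles, so fewer cells of a type and less RNA per cell cannot be told apart, and the labels do not say that libraries of a group come from separate animals. The p-values therefore reflect spread among libraries only, and that may be technical.

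The labels were first checked on Dmd. Its group means were 6.94 to 11.7 RPKM in wt and 1.89 to 3.71 RPKM in mdx, and it fell in all 6 comparisons, by 1.41 to 1.65 on the log2 scale. All 10 fibre markers, such as Ckm and Ttn, were detected in every group. The table's library IDs were divided into 3 runs, called ID blocks and numbered 1 (up to ns48), 2 (up to ns53) and 3 (from ns54 up). Blocks 2 and 3 hold only mdx libraries at 5 months, so at that age values within blocks are also given for the counts and the members described most fully. Estimated depth was 20.5 to 66.8 M reads a library. What the blocks stand for is not given in the sources used here. Differences are of log2(RPKM + 1), a scale that shrinks the change of weakly expressed genes, and "rose" and "fell" mark a difference past an adjusted p of 0.05 in limma over all 12541 genes tested.

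Promoters of the immunoproteasome subunits, of constitutive partners and of both chains of the interferon-induced activator are shown, because the comparison of these genes is what the measurements turn on. Each runs from 250 bases before to 50 bases after the gene's start in RefSeq, on GRCm38.p6, and is written 5′ to 3′ on the gene's own strand. Capitals mark a match to one of 3 motifs searched on both strands: TTCNNNGAA, the gamma-activated site; GAAA, then any 2 bases, then GAAA, a core of the interferon-stimulated response element; and TGACNNNGC, a core of the antioxidant response element bound by NRF1 and NRF2.
Psmb8, chr17:34197945-34198244, plus strand: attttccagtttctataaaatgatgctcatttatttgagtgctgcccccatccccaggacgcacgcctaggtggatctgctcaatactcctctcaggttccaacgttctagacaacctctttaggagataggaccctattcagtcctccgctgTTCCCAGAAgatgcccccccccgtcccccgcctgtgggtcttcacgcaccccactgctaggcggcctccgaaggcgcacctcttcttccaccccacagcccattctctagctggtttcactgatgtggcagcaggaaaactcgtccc
Psmb9, chr17:34187281-34187580, minus strand: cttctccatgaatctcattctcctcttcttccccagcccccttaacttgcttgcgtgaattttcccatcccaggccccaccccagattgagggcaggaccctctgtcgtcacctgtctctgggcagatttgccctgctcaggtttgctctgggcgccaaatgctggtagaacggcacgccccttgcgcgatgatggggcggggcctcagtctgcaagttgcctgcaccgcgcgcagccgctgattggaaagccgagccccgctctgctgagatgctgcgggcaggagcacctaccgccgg
Psmb10, chr8:105938343-105938642, minus strand: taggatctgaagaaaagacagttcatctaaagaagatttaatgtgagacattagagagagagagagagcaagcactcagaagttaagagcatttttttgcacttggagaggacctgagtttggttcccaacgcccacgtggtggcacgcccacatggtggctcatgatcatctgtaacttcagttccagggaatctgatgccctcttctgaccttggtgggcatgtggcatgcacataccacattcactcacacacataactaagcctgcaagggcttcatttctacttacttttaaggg
Psmb5, chr14:54617946-54618245, minus strand: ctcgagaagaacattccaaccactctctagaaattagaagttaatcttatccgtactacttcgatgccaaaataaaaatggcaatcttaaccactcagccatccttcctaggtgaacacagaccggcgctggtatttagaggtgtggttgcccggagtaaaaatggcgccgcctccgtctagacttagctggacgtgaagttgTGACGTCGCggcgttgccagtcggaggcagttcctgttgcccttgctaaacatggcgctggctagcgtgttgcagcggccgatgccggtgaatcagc
Psmb6, chr11:70525107-70525406, plus strand: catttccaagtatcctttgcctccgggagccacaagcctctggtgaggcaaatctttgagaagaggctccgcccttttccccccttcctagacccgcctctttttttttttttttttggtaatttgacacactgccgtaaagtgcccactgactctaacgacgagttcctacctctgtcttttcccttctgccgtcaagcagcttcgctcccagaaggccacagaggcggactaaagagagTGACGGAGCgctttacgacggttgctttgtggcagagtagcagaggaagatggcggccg
Psme1, chr14:55578244-55578543, plus strand: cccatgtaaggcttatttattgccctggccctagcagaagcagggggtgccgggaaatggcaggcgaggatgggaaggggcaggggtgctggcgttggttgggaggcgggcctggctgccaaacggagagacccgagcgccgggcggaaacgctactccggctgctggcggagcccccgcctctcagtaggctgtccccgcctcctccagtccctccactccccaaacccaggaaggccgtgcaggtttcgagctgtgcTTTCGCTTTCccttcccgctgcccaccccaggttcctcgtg
Psme2, chr14:55590972-55591271, minus strand: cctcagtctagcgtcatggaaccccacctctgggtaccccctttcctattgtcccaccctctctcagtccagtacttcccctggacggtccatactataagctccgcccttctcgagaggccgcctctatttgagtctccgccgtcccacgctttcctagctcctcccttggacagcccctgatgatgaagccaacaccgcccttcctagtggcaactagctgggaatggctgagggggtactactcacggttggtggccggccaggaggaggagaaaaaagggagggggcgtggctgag
In the Psmb8 window TTCNNNGAA matched from 97 to 89 bases before the start. In the windows of Psmb9, Psmb10 and Psme2 (either of its 2 annotated starts, 1 of which is shown) none of the 3 strings was present. The Psmb5 and Psmb6 windows each held TGACNNNGC, from 47 to 39 and from 9 to 1 bases before the start, and the Psme1 window held the interferon-stimulated element core on the opposite strand, from base 9 to base 18 after the start. Over the 45 promoters found for 42 of the members, TTCNNNGAA was in 3, the interferon-stimulated element core in 5 and TGACNNNGC in 6. Among all 32851 promoters of this length the shares were 8.3%, 3.44% and 12.4%, and among the member promoters 6.67%, 11.1% and 13.3%. A match describes letters and not binding.

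Psmb8 and Psmb9 lie among the peptide transporter genes of the MHC on chromosome 17 (GENCODE M21, mm10). Psmb9 (34181987 to 34187764, minus strand) is followed by Tap1 (34187553 to 34197225, plus strand), Psmb8 (34197721 to 34201454, plus strand) and Tap2 (34203527 to 34216321, plus strand). The windows printed above for Psmb8 and Psmb9 lie wholly inside these spans, and that of Psme1 inside its own (55578123 to 55581529). For these genes the GENCODE span begins further upstream than the RefSeq start used. Matches, or their absence, in these windows thus hold for the RefSeq start only. The annotated spans of Psmb9 and Tap1 overlap on opposite strands, and Psmb8 and Psmb10 each overlap an antisense gene (Gm20496 and Gm16156). In all, 24 of the 50 members overlap another annotated gene. Whether the authors counted by strand is not stated in the labels, and reads of such pairs, and of Psmb5, Psmb6 and Psmb7 with their processed pseudogenes, may have been split or shared.

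In mdx the number of the 47 tested members that rose differed widely between muscles and ages, and on RPKM as deposited rises outnumbered falls in each comparison. In FDB at 2 months 5 rose and 0 fell by limma (6 passed an unadjusted p of 0.05), against 30% of all tested genes higher and 4.6% lower. Without ns01 or ns04 the rises numbered 2, and without ns10 or ns11 they numbered 3. In FDB at 5 months 12 rose and 6 fell, against 53.1% and 9.46% of all genes. In EDL at 2 months 28 rose and 1 fell, against 41.6% and 8.69%.

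In EDL at 5 months 36 members rose and 1 fell, where 60.2% of all genes were higher and 8.52% lower. In SOL at 2 months 8 rose and 1 fell (32.3% and 7.68% of all genes), and in SOL at 5 months 34 rose and 1 fell (52.9% and 11.3%). The 5-month counts moved with the ID block. The share of all genes called within single blocks was not computed for these comparisons, so a shift of the members cannot be told from a shift of all genes. In FDB 21 rose and 1 fell with block 1 of mdx alone, and 8 rose and 10 fell with block 3. In EDL 22 rose with block 1, and 34 rose and 1 fell with block 3. In SOL 40 rose and 3 fell with block 2, and 21 and 1 with block 3. The 4 SOL libraries of block 2 also stood apart in summed RPKM over all genes, at 375905 to 401165 against 303869 to 325544 in the other 5-month SOL libraries. The share of that sum held by the members other than Psmc3ip was 0.668% to 0.703% in block 2, 0.676% to 0.725% in block 3 and 0.670% to 0.682% in wt. The part of this sum in the SOL counts was not tested.

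As a share of members over all libraries, rises were below the share of all genes in FDB and in SOL at 2 months and above it in EDL and in SOL at 5 months. Series of 6 values are given in the order FDB at 2 and 5 months, EDL at 2 and 5 months, SOL at 2 and 5 months. The all-gene median was itself 0.13, 0.18, 0.14, 0.23, 0.10 and 0.18, and the median of the members was 0.05, 0.05, 0.18, 0.21, 0.09 and 0.21. Small changes thus take their sign from how libraries are scaled. Under median-of-ratios scaling the all-gene medians were −0.03, −0.06, −0.03, −0.05, −0.05 and −0.02, and 0, 3, 7, 3, 5 and 9 members rose while 13, 33, 8, 23, 10 and 12 fell. Of all genes, 9.75%, 26.0%, 21.5%, 25.8%, 17.5% and 28.0% were then higher and 16.4%, 38.0%, 27.1%, 35.6%, 25.2% and 32.7% lower. With quantile normalization 1, 5, 16, 12, 7 and 12 rose and 3, 21, 3, 7, 2 and 12 fell, where 11.3%, 24.5%, 20.1%, 24.4%, 17.02% and 25.1% of all genes were higher and 14.7%, 37.8%, 29.6%, 33.4%, 23.6% and 35.95% lower.

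Rising in all 6 comparisons were 5 of the 47 members: Psmb8, Psmb10, the 19S lid subunit Psmd8, and the 19S assembly chaperones Psmd5 and Psmd10. With median-of-ratios scaling Psmb8 and Psmb10 rose in 5 of the 6, Psmd8 in 3, Psmd5 in 2 and Psmd10 in 1, and Psmd10 fell in 1. Psmb9, the alpha subunit Psma5 and the 19S lid subunit Psmd13 rose in 5 of 6. With median-of-ratios scaling Psmb9 rose in 5, Psma5 in 0 and Psmd13 in 0 with 1 fall, and with quantile normalization they rose in 5, 3 and 4. Psmb2 and Psmd7 passed in none, and 6 members (Psmc1, Psmc2, Psmd1, Psmd4, Psmd12 and Psmc3ip) rose in some comparisons and fell in others. The heat map of changes by role shows these patterns.

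**Figure D1:**
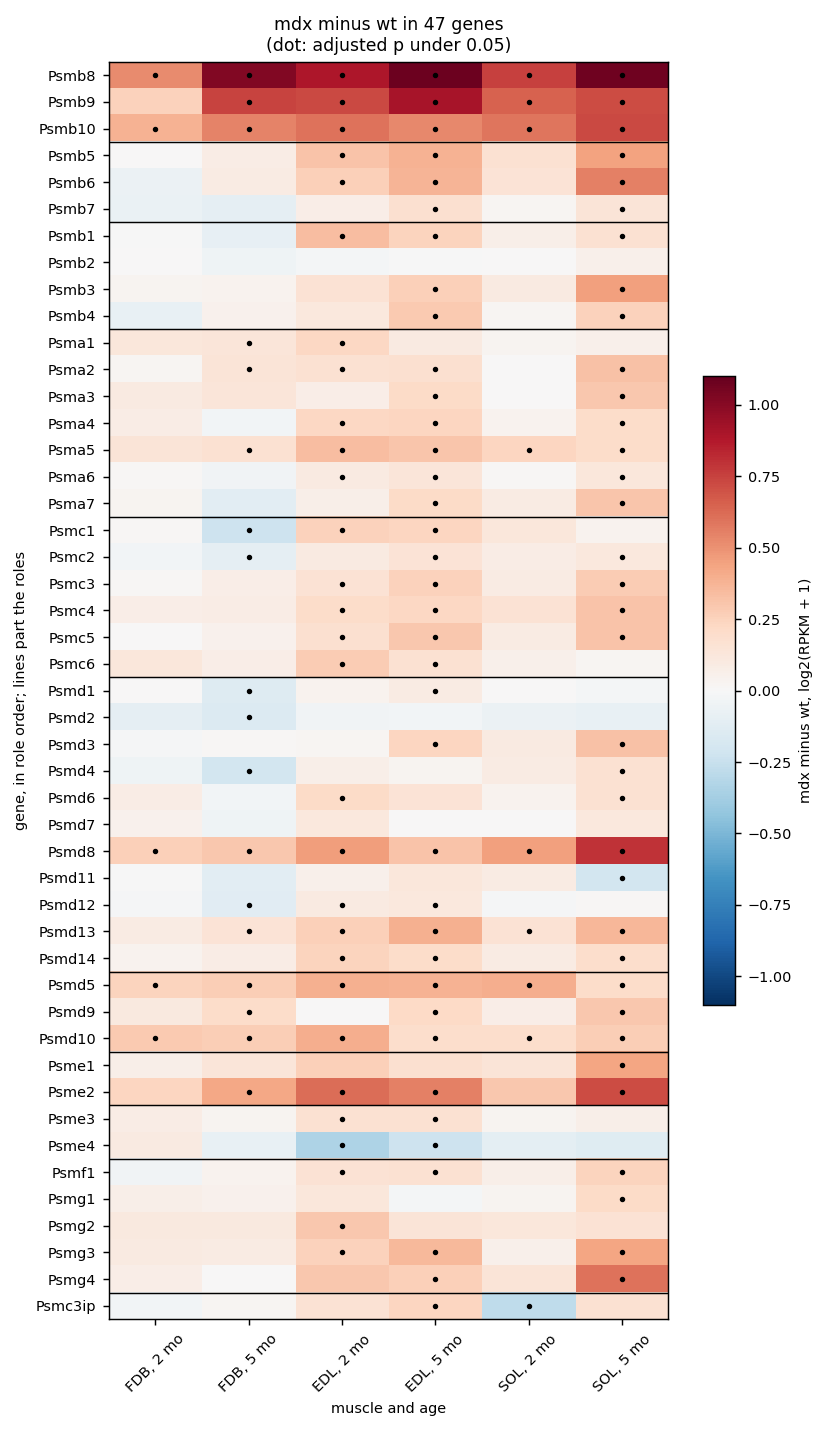
Colour gives the mdx minus wt difference of mean log2(RPKM + 1) for each of the 47 tested genes (rows, ordered by role) in each muscle and age (columns), and a dot marks an adjusted p under 0.05. Psmb8 reaches 1.08 in EDL at 5 months, and the FDB columns hold 5 dots at the younger age and 18 at the older. The FDB dots are not confined to the immunoproteasome genes and the 19S chaperones.

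Psmb8, the immunoproteasome counterpart of Psmb5 with chymotrypsin-like activity, rose in mdx in every muscle at both ages. In FDB at 2 months its level was 3.49, 3.80, 4.02 and 4.06 RPKM in wt and 5.38, 6.10 and 6.41 in mdx. At 5 months it was 2.03, 2.13, 2.31 and 2.76 RPKM in wt and ran from 3.93 to 7.34 around a median of 5.26 in the 7 mdx libraries. All mdx libraries lay above all wt libraries at both ages, and the lowest wt values were those at 5 months. The difference was 0.52 (SE 0.20, adjusted p = 0.0334) at 2 months and 1.02 (SE 0.16, adjusted p = 5.04e-07) at 5 months, with 0.81 and 1.17 in ID blocks 1 and 3. The call at 2 months was lost without any one of 4 of the 7 libraries (ns01, ns04, ns10 or ns11), with adjusted p of up to 0.117, and with either other scaling (0.34 and 0.35).

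In EDL at 2 months Psmb8 stood at 2.59, 4.41, 4.61 and 5.38 RPKM in wt and 6.55, 6.87, 10.2 and 11.4 in mdx. At 5 months the wt values were 2.31, 2.47, 3.14 and 3.39 RPKM and the mdx values ran from 4.92 to 11.7 around a median of 6.89. The groups did not overlap, and the mdx libraries lay further apart in EDL than in FDB or SOL at 2 months. The differences were 0.89 (SE 0.18, adjusted p = 6.42e-05) and 1.08 (SE 0.16, adjusted p = 2.48e-07), with 1.19 and 1.02 in blocks 1 and 3. In SOL Psmb8 was 3.52, 3.64, 4.07 and 4.15 RPKM in wt and 6.56, 7.01, 7.47 and 7.49 in mdx at 2 months. At 5 months it was 2.52, 2.82, 3.43 and 4.21 RPKM in wt and ran from 6.81 to 11.1 around a median of 7.01 in mdx. Again every mdx library exceeded every wt library, by 0.75 (SE 0.18, adjusted p = 0.00085) and 1.07 (SE 0.16, adjusted p = 1.82e-07), with 1.19 and 0.91 in blocks 2 and 3.

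Psmb9, which takes the place of Psmb6, was less abundant than Psmb8 and Psmb10 and rose in all comparisons but FDB at 2 months. In FDB at 2 months it was 1.55, 1.76, 1.86 and 2.20 RPKM in wt and 2.31, 2.34 and 2.48 in mdx, a difference of 0.25 (SE 0.19, adjusted p = 0.307). The groups did not overlap there, but the difference did not pass. At 5 months wt FDB held 0.951, 1.02, 1.05 and 1.18 RPKM and mdx ran from 1.60 to 2.95 around a median of 2.54, higher by 0.74 (SE 0.16, adjusted p = 5.82e-05), with 0.59 and 0.86 in ID blocks 1 and 3. In EDL the levels were 1.53, 2.00, 2.14 and 2.17 RPKM in wt and 2.60, 2.80, 5.33 and 5.49 in mdx at 2 months. At 5 months they were 0.796, 0.947, 1.82 and 1.95 RPKM in wt and ran from 2.01 to 4.87 around a median of 3.43 in mdx. Among the 5-month EDL mdx libraries the lowest was close to the highest wt value, and at 2 months 2 mdx libraries lay near the wt range and 2 far above it. Psmb9 rose in EDL by 0.72 (SE 0.17, adjusted p = 0.000595) and 0.90 (SE 0.16, adjusted p = 3.65e-06), with 0.85 and 0.93 in those blocks. In SOL it rose by 0.65 (SE 0.17, adjusted p = 0.00259) and 0.72 (SE 0.16, adjusted p = 9.55e-05), from group means of 2.17 ± 0.33 and 2.19 ± 0.541 RPKM (SD, n = 4) to 3.95 ± 0.154 (n = 4) and 4.24 ± 0.815 (n = 7). The SOL values at 5 months were 0.83 and 0.56 in blocks 2 and 3.

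Psmb10, the counterpart of Psmb7 with trypsin-like activity, rose in all 6 comparisons. In SOL, where its level was highest, wt libraries held 5.42, 5.83, 6.38 and 6.68 RPKM at 2 months and mdx libraries 8.87, 9.52, 10.02 and 10.2. At 5 months wt SOL held 5.78, 5.83, 6.10 and 6.28 RPKM and mdx ran from 7.95 to 12.8 around a median of 11.4. All mdx values lay above all wt values, and the 4 libraries of block 2 (11.4 to 12.8 RPKM) lay above the 3 of block 3 (7.95 to 9.45). The rise was 0.59 (SE 0.11, adjusted p = 4.42e-05) and 0.72 (SE 0.10, adjusted p = 3.79e-08), with 0.94 and 0.44 in those blocks. Elsewhere Psmb10 rose by 0.38 and 0.54 in FDB (adjusted p = 0.0137 and 8.73e-06) and by 0.60 and 0.53 in EDL (adjusted p = 2.34e-05 and 1.92e-05). The FDB call at 2 months was lost without ns01 (adjusted p = 0.0609) and with either other scaling (0.20 and 0.22). At 5 months the block values were 0.48 and 0.59 in FDB and 0.53 and 0.53 in EDL.

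**Figure D2:**
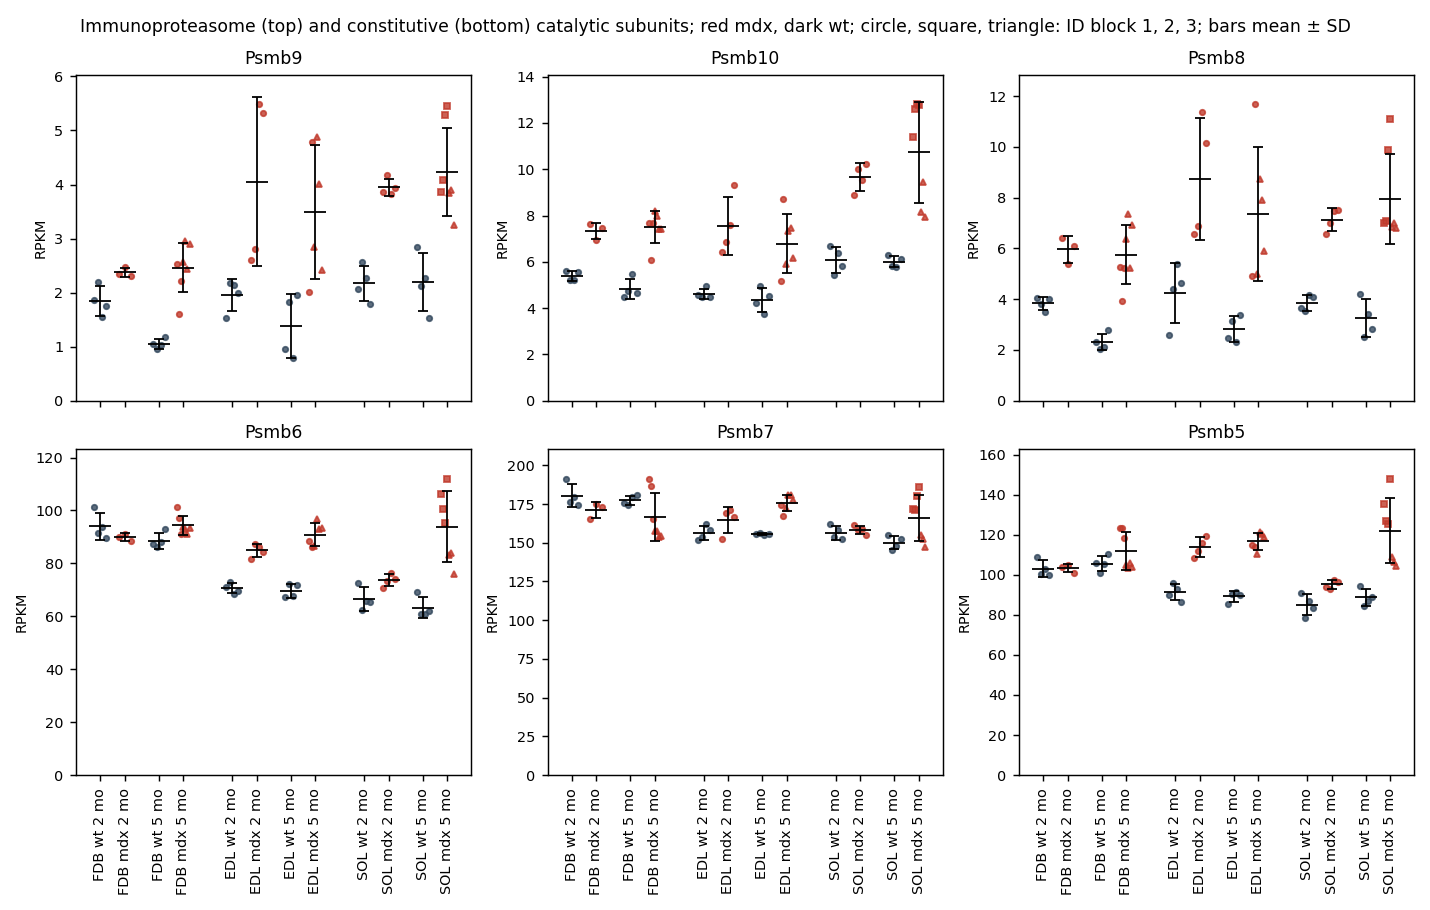
RPKM (vertical axis, starting at 0) of each catalytic subunit in every library of the 12 groups, with mdx in red and wt in dark, marker shape for the ID block and bars for mean ± SD. Psmb8 runs from 2.03 to 11.7 RPKM and is higher in mdx in every muscle and age, while Psmb7 runs from 145 to 191 RPKM with mdx and wt overlapping in 5 of the 6 comparisons.

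No library of mdx overlapped with wt for Psmb8, Psmb9 or Psmb10 in any muscle at either age. The same held for Psme2, Psmd8 and Psmd13. The share of all genes without overlap was not computed. Lack of overlap, here and for single members, thus describes the libraries and sets no member apart from other genes. With the other scalings Psmb8, Psmb9 and Psmb10 each rose in 5 of 6 comparisons, by 0.34 to 0.86, 0.11 to 0.68 and 0.20 to 0.49 over all 6 under median-of-ratios scaling. Over all libraries none of these 3 immunoproteasome genes passed a test of genotype by age or by muscle. With mdx block 2 alone Psmb10 passed genotype by age in SOL (0.34, adjusted p = 0.0382 by limma), against −0.15 with block 3 alone.

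The constitutive partners were far more abundant and moved less, and their direction depended on muscle and scaling. Psmb5, the chymotrypsin-like subunit, held 100.1, 100.2, 103 and 109 RPKM in wt FDB at 2 months and 101, 104 and 105 in mdx. At 5 months the FDB values were 101, 105, 106 and 110.2 RPKM in wt and ran from 103 to 123 around a median of 106 in mdx. The groups overlapped at both ages, and the differences of 0.0035 (SE 0.07, adjusted p = 0.976) and 0.08 (SE 0.06, adjusted p = 0.262) did not pass, with 0.20 and −0.01 in ID blocks 1 and 3 at 5 months. In EDL Psmb5 was 86.2, 89.9, 93.1 and 95.7 RPKM in wt against 108, 112, 116 and 119.6 in mdx at 2 months. At 5 months it was 85.4, 89.9, 90.5 and 91.6 RPKM in wt and ran from 110.5 to 121 around a median of 117 in mdx. Here every mdx library lay above every wt library, by 0.32 (SE 0.07, adjusted p = 0.000184) and 0.38 (SE 0.06, adjusted p = 1.25e-06), with 0.35 and 0.39 in those blocks. In SOL the difference was 0.16 (SE 0.07, adjusted p = 0.0552) at 2 months, which did not pass, and 0.45 (SE 0.06, adjusted p = 3.39e-08) at 5 months. The 5-month SOL values were 84.6, 86.9, 88.8 and 94.6 RPKM in wt, 125 to 148 in ID block 2 of mdx and 104 to 109 in block 3, so both blocks lay above wt but block 2 lay further. Across the 6 comparisons Psmb5 rose in 1 and fell in 1 with median-of-ratios scaling, which gave −0.23 in FDB at 5 months, and rose in 3 with quantile normalization.

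Psmb6, the caspase-like subunit, followed the same order. Its wt level was 67.3, 67.6, 71.6 and 72.3 RPKM in EDL at 5 months and its mdx level ran from 86.04 to 96.9 around a median of 90.9. In SOL at 5 months it was 60.9, 61.03, 61.98 and 69.4 RPKM in wt and ran from 75.98 to 112 around a median of 95.4 in mdx. Neither pair overlapped, and the SOL mdx libraries again divided by block, with 95.4 to 112 RPKM in block 2 and 76.0 to 83.9 in block 3. Psmb6 rose by 0.26 (SE 0.07, adjusted p = 0.00128) and 0.38 (SE 0.06, adjusted p = 1.10e-06) in EDL and by 0.55 (SE 0.06, adjusted p = 1.61e-10) in SOL at 5 months, with 0.70 and 0.35 in blocks 2 and 3 of SOL and 0.32 and 0.40 in blocks 1 and 3 of EDL. In FDB at 2 and 5 months and in SOL at 2 months its differences of −0.06, 0.09 and 0.15 did not pass. With median-of-ratios scaling Psmb6 rose in 1 comparison and fell in 2, and its range was −0.26 to 0.28.

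Psmb7, the trypsin-like subunit and the most abundant catalytic gene, moved less. In FDB at 5 months it held 175, 175, 179 and 181 RPKM in wt and ran from 153 to 191 around a median of 158 in mdx, and the groups overlapped. It passed in EDL at 5 months, with 155, 155, 156 and 156 RPKM in wt and from 167 to 181 around a median of 176 in mdx. It also passed in SOL at 5 months, with 145, 148, 152 and 155 RPKM in wt and from 147 to 186 around a median of 171 in mdx. The EDL groups did not overlap, and in SOL all 4 libraries of block 2 lay above wt while the 3 of block 3 lay within the wt range. The rises were 0.17 (SE 0.05, adjusted p = 0.00366) and 0.14 (SE 0.05, adjusted p = 0.0144), the latter 0.24 and 0.01 in blocks 2 and 3 and lost without wt library ns30 (adjusted p = 0.0517). In EDL it did not pass in block 1 (0.13). Under median-of-ratios scaling the sign was turned in both (−0.21 and −0.13) and Psmb7 fell in 4 of 6 comparisons, and with quantile normalization it fell in 2 (−0.16 in FDB and −0.09 in SOL at 5 months).

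Set against each other, the immunoproteasome subunits made up a small but larger share of catalytic subunit RNA in mdx. Of the summed RPKM of Psmb5 to Psmb10, they held 2.85% ± 0.167 in wt FDB at 2 months and 2.15% ± 0.0886 at 5 months (SD, n = 4 each). In mdx FDB they held 4.12% ± 0.267 (n = 3) and 4.08% ± 0.740 (n = 7). The share in EDL was 3.28% ± 0.425 and 2.65% ± 0.439 in wt (n = 4 each) and 5.27% ± 1.09 (n = 4) and 4.39% ± 1.23 (n = 6) in mdx. SOL had the highest shares, 3.78% ± 0.125 and 3.64% ± 0.298 in wt (n = 4 each) and 5.96% ± 0.285 (n = 4) and 5.63% ± 0.544 (n = 7) in mdx. In no muscle or age did mdx and wt libraries overlap in this share, which scaling a library up or down leaves as it is. At 5 months mdx exceeded wt by 1.26 and 2.42 percentage points in ID blocks 1 and 3 of FDB, by 2.11 and 1.56 in those of EDL, and by 2.22 and 1.68 in blocks 2 and 3 of SOL. No test was made on it, since it is a value over chosen members.

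By active site the pattern was alike, with some overlap. Psmb8 made up 2.13% to 4.44% of the sum of Psmb8 and Psmb5 over the wt group means and 4.96% to 7.07% over the mdx group means, with no overlap of libraries in any muscle or age. Psmb9 made up 1.17% to 3.32% of the sum of Psmb9 and Psmb6 in wt and 2.54% to 5.09% in mdx, and libraries overlapped in EDL and SOL at 5 months. Psmb10 made up 2.65% to 3.84% of the sum of Psmb10 and Psmb7 in wt and 3.72% to 6.01% in mdx, with overlap in EDL at 5 months. On the log2 scale, the mean of the 3 immunoproteasome subunits minus that of the 3 constitutive ones was higher in mdx by 0.43 in FDB, 0.52 in EDL and 0.55 in SOL at 2 months and by 0.74, 0.53 and 0.46 at 5 months. Libraries overlapped in EDL at 5 months alone.

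**Figure D3:**
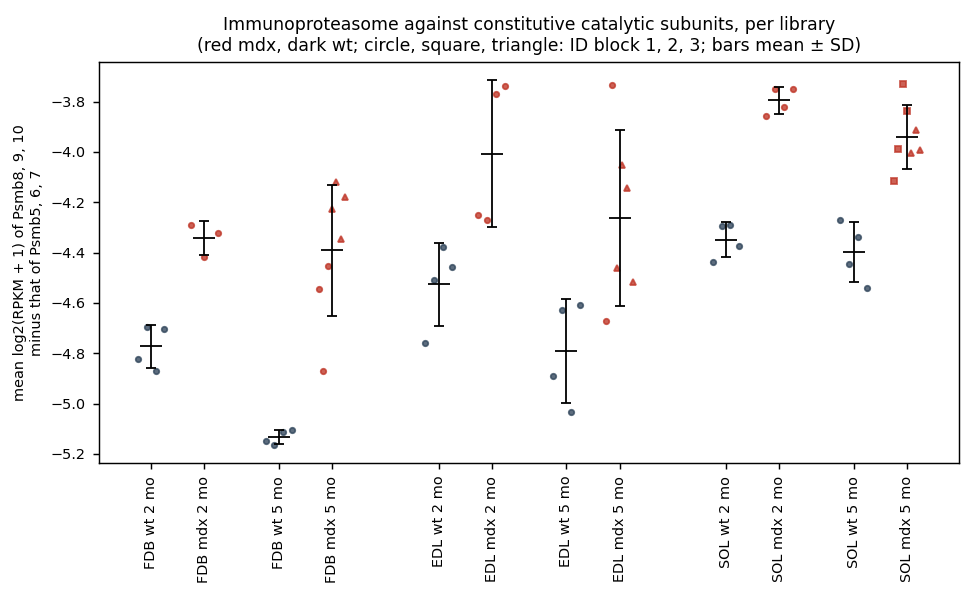
Mean log2(RPKM + 1) of Psmb8, Psmb9 and Psmb10 minus that of Psmb5, Psmb6 and Psmb7 (vertical axis, log2 units) in every library of the 12 groups, with mdx in red, wt in dark, marker shape for the ID block and bars for mean ± SD. Group means run from −5.13 in wt FDB at 5 months to −3.80 in mdx SOL at 2 months.

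Between mdx and wt, leukocyte and macrophage markers moved with the share. All 13 leukocyte and macrophage markers, such as Ptprc, Cd68 and C1qa, rose in all 6 comparisons, and their summed RPKM did not overlap between mdx and wt. In FDB the sum ran from 228 to 287 RPKM in wt and from 504 to 703 in mdx at 2 months, and from 125 to 185 and from 541 to 884 at 5 months. In EDL it ran from 99.98 to 164 in wt and from 398 to 748 in mdx at 2 months, and from 39.4 to 92.0 and from 183 to 592 at 5 months. In SOL it ran from 54.9 to 132 and from 310.4 to 471 at 2 months, and from 19.8 to 58.6 and from 210.2 to 596 at 5 months. The 10 T and NK cell markers and the 4 B cell markers summed to at most 4.45 and 2.44 RPKM in any library and none reached the test filter. Of 6 fibroblast markers 3 to 6 rose in each comparison and 1 fell in EDL at 2 months, of 6 endothelial markers 0 to 5 rose and 1 fell in SOL at 5 months, and of the 10 fibre markers 2 to 5 fell and 0 to 3 rose. The part of these cells in the levels of Psmb8, Psmb9 and Psmb10 was not tested. Between wt muscles the share and the marker sum did not go the same way, since wt FDB held the highest marker sums and the lowest share, while wt SOL held the lowest median sum at each age and the highest share. Among mdx muscles FDB likewise held the highest median sum and the lowest mean share at each age. Within mdx FDB at 5 months, block 1 held sums of 653 to 884 RPKM and shares of 2.78% to 3.88%. Block 3 held lower sums, 541 to 652 RPKM, and higher shares, 4.13% to 4.91%.

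**Figure D4:**
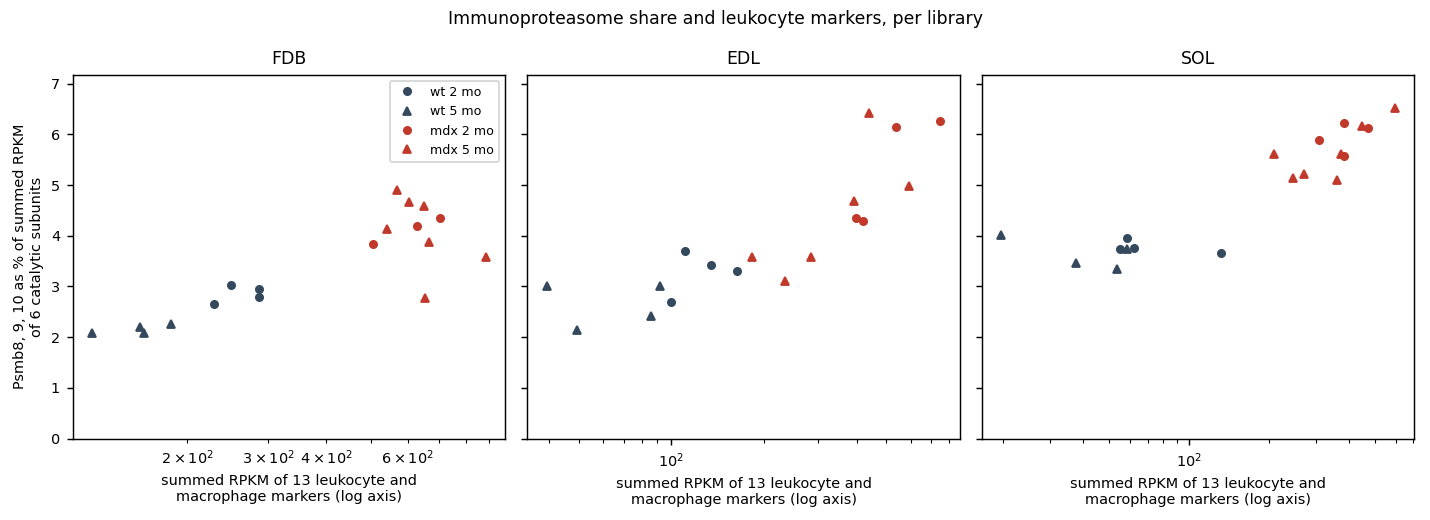
Percent of the summed RPKM of Psmb5 to Psmb10 held by Psmb8, Psmb9 and Psmb10 (vertical axis) against the summed RPKM of 13 leukocyte and macrophage markers (horizontal log axis), 1 point per library, mdx in red and wt in dark. In each muscle and age the mdx libraries lie above and to the right of the wt libraries, and wt SOL lies at 19.8 to 132 RPKM of marker RNA with higher shares than wt FDB at 125 to 287.

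The activator PA28, a ring of the chains Psme1 and Psme2 that opens the core and is induced by interferon gamma, differed between its chains. Psme2 rose in FDB at 5 months, in EDL at both ages and in SOL at 5 months. In EDL at 2 months it was 13.8, 14.4, 14.7 and 15.1 RPKM in wt and 19.1, 21.4, 24.7 and 26.03 in mdx. At 5 months it was 12.6, 12.6, 13.4 and 15.1 RPKM in wt and ran from 17.6 to 25.7 around a median of 19.2 in mdx. All mdx libraries lay above all wt libraries, by 0.61 (SE 0.13, adjusted p = 0.000128) and 0.55 (SE 0.12, adjusted p = 8.41e-05). In FDB at 5 months wt held 17.04, 18.04, 18.4 and 18.9 RPKM and mdx ran from 19.5 to 26.6 around a median of 25.5, without overlap and higher by 0.43 (SE 0.12, adjusted p = 0.00136). In SOL at 5 months wt held 18.9, 19.4, 19.4 and 20.3 RPKM and mdx ran from 22.4 to 46.1 around a median of 38.2, higher by 0.72 (SE 0.12, adjusted p = 7.77e-07). Block 2 lay at 38.2 to 46.1 RPKM and block 3 at 22.4 to 25.9, so the difference from wt was 1.04 and 0.30. The 5-month block values of Psme2 were 0.34 and 0.49 in blocks 1 and 3 of FDB and 0.64 and 0.51 in those of EDL. At 2 months the differences in FDB (0.24) and SOL (0.29) did not pass although the libraries did not overlap. With median-of-ratios scaling Psme2 rose in 2 comparisons and ranged from 0.04 to 0.46.

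Psme1 passed once, in SOL at 5 months, and that value differed between the ID blocks. Its wt libraries held 25.6, 26.4, 29.2 and 29.4 RPKM there, the 4 of mdx block 2 held 47.9 to 56.6 and the 3 of block 3 held 24.4 to 26.1. Block 2 lay wholly above wt and block 3 at its lower edge. The difference was 0.44 (SE 0.13, adjusted p = 0.0043) over all libraries, 0.85 in block 2 and −0.12 in block 3. Block 2 was also shallower, at an estimated 21.3 to 25.7 M reads a library against 44.6 to 60.4 M in block 3, and the part of depth or of block in these values was not tested. Psme1 passed in no comparison under either other scaling.

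The other activators moved less. Psme3, the nuclear PA28 gamma, rose in EDL by 0.17 and 0.17, but its sign turned with median-of-ratios scaling. Psme4, the activator PA200, fell in EDL from 34.7, 35.6, 38.8 and 39.5 RPKM in wt to 28.1, 28.7, 29.3 and 30.3 in mdx at 2 months. At 5 months it fell from 34.9, 35.03, 37.1 and 38.1 RPKM in wt to a range from 28.5 to 34.5 around a median of 30.2 in mdx. No library overlapped at either age. The differences were −0.34 (SE 0.07, adjusted p = 0.000161) and −0.23 (SE 0.07, adjusted p = 0.00286), with −0.10 (past no threshold) in ID block 1 and −0.29 in block 3. Psme4 fell in EDL under both other scalings too, by 0.57 and 0.60 with median-of-ratios and by 0.46 and 0.37 with quantile normalization.

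The counts by role that follow are to be read beside the shares of all tested genes that were higher. Those shares were 30%, 53.1%, 41.6%, 60.2%, 32.3% and 52.9% in the order given. Among the core subunits, the alpha ring, which gates the barrel, rose mainly in EDL and in SOL at 5 months. Of its 7 tested genes 0, 3, 5, 6, 1 and 6 rose in the order given and 0 fell by limma, while with median-of-ratios scaling none rose and 1, 5, 1, 3, 2 and 2 fell. Psma5 changed most often, by 0.14, 0.17, 0.34, 0.31, 0.24 and 0.20 in that order, and was past the threshold in all but FDB at 2 months. Its call in FDB at 5 months was lost without ns05 (adjusted p = 0.0574) or ns06 (0.0507), and the block values there were 0.35 and 0.03 in blocks 1 and 3. Psma7 rose by 0.21 and 0.30 in EDL and SOL at 5 months, where median-of-ratios scaling gave −0.16 and 0.04, and the SOL values were 0.56 in block 2 and −0.05 in block 3. Of the 4 other beta genes tested, which are not catalytic, 0, 0, 1, 3, 0 and 3 rose, and with median-of-ratios scaling none rose and 1, 4, 1, 1, 1 and 1 fell. Psmb1 rose by 0.34, 0.24 and 0.17 in EDL at both ages and SOL at 5 months (0.11, −0.14 and −0.10 with median-of-ratios scaling; in SOL 0.33 in block 2 and −0.05 in block 3), and Psmb2 passed in none.

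In the 19S cap, the 6 ATPases that unfold substrates rose in number 0, 0, 5, 6, 0 and 4 by comparison, and 2 fell in FDB at 5 months. With median-of-ratios scaling none of them rose in any comparison and 3, 6, 1, 3, 0 and 3 fell. On RPKM Psmc5 rose by 0.18 and 0.30 in EDL and by 0.31 in SOL at 5 months, and with median-of-ratios scaling it was −0.05, −0.08 and 0.04. Psmc1 went both ways. In FDB at 5 months it held 119, 119, 123 and 129 RPKM in wt and ran from 95.8 to 117 around a median of 98.6 in mdx, lower in every mdx library, a difference of −0.23 (SE 0.06, adjusted p = 0.00105). In EDL it rose by 0.25 and 0.24, but not with median-of-ratios scaling, where its values were 0.02 and −0.14. The fall in FDB held in ID block 3 (−0.32) and was not past the threshold in the first (−0.10).

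Of the 11 non-ATPase subunits 1, 2, 5, 6, 2 and 6 rose, 4 fell in FDB at 5 months and 1 fell in SOL at 5 months. With median-of-ratios scaling 0, 0, 1, 0, 1 and 1 rose and 5, 10, 3, 9, 3 and 4 fell. In FDB at 5 months the ubiquitin receptor Psmd4 held 120.5, 127, 129.9 and 137 RPKM in wt and ran from 105 to 119 around a median of 108 in mdx. The groups did not overlap, and Psmd4 fell by 0.21 on the log2 scale (adjusted p = 0.000955; block values −0.12, not past the threshold, and −0.27). The scaffold subunit Psmd2 fell there too, by 0.15 (adjusted p = 0.000394; −0.15 and −0.15 in blocks 1 and 3). Both falls were larger under both other scalings. Psmd11, a lid subunit, fell in SOL at 5 months by 0.20 (adjusted p = 0.00614), with −0.34 in block 2 and −0.03 in block 3.

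Psmd8, a lid subunit, rose in all 6 comparisons on RPKM, most in SOL at 5 months. In SOL at 5 months wt held 53.6, 54.4, 55.5 and 56.2 RPKM and mdx ran from 80.6 to 114 around a median of 102. At 2 months wt SOL held 59.9, 59.98, 60.4 and 77.6 RPKM and mdx 82.9, 85.4, 89.5 and 93.7. At both ages all mdx libraries lay above all wt libraries, and at 2 months 1 wt library lay far above the other wt libraries. The rises were 0.45 (SE 0.09, adjusted p = 9.34e-05) and 0.79 (SE 0.08, adjusted p = 2.25e-11), with 0.94 and 0.59 in blocks 2 and 3. In FDB it rose by 0.26 and 0.30 and in EDL by 0.46 and 0.32. Without any one of 4 FDB libraries (ns01, ns04, ns10 or ns12) the call in FDB at 2 months was lost (adjusted p up to 0.193), and the value in EDL at 5 months did not pass in ID block 1 (0.23). With median-of-ratios scaling the FDB and EDL values at 5 months turned to −0.01 and −0.06, while with quantile normalization Psmd8 rose in all 6 comparisons.

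Of the 3 chaperones that assemble the cap, Psmd5, Psmd9 and Psmd10, 2 or 3 rose in each comparison (2, 3, 2, 3, 2 and 3), but with median-of-ratios scaling 0, 0, 2, 0, 1 and 0 rose and 1 fell in EDL at each age. Psmd5 changed by 0.25, 0.27, 0.39, 0.38, 0.40 and 0.21 and Psmd10 by 0.29, 0.27, 0.40, 0.19, 0.19 and 0.27, all past the threshold. For Psmd10 at 5 months the block values were 0.36 and 0.21 (FDB), 0.18 and 0.20 (EDL), and 0.33 and 0.20 (SOL). In EDL at 2 months Psmd5 held 5.25, 5.69, 5.85 and 5.88 RPKM in wt and 7.11, 7.32, 8.16 and 8.45 in mdx, without overlap. The call for Psmd5 in FDB at 2 months was lost without mdx library ns04 (adjusted p = 0.0944) or wt library ns11 (0.0655), and in SOL at 5 months without wt library ns32 (0.0752) or with mdx block 2 alone, where the log2 difference was 0.11. The 4 core chaperones and PI31 (Psmg1 to Psmg4 and Psmf1) rose in number 0, 0, 3, 3, 0 and 4, and with median-of-ratios scaling 0, 0, 0, 0, 0 and 2 rose and 1, 3, 0, 3, 0 and 0 fell. Psmg4 rose by 0.26 and 0.60 in EDL and SOL at 5 months, and under median-of-ratios scaling by 0.35 in SOL while EDL was −0.08. The SOL value was 0.92 in block 2 and 0.18 in block 3. Psmc3ip, the member that is no subunit, fell in SOL at 2 months by 0.28 (adjusted p = 0.0359) at 1.28 to 2.26 RPKM over all group means. That call was lost without any one of 6 of the 8 libraries (ns17, ns18, ns19, ns25, ns26 or ns27), with adjusted p of up to 0.130.

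**Figure D5:**
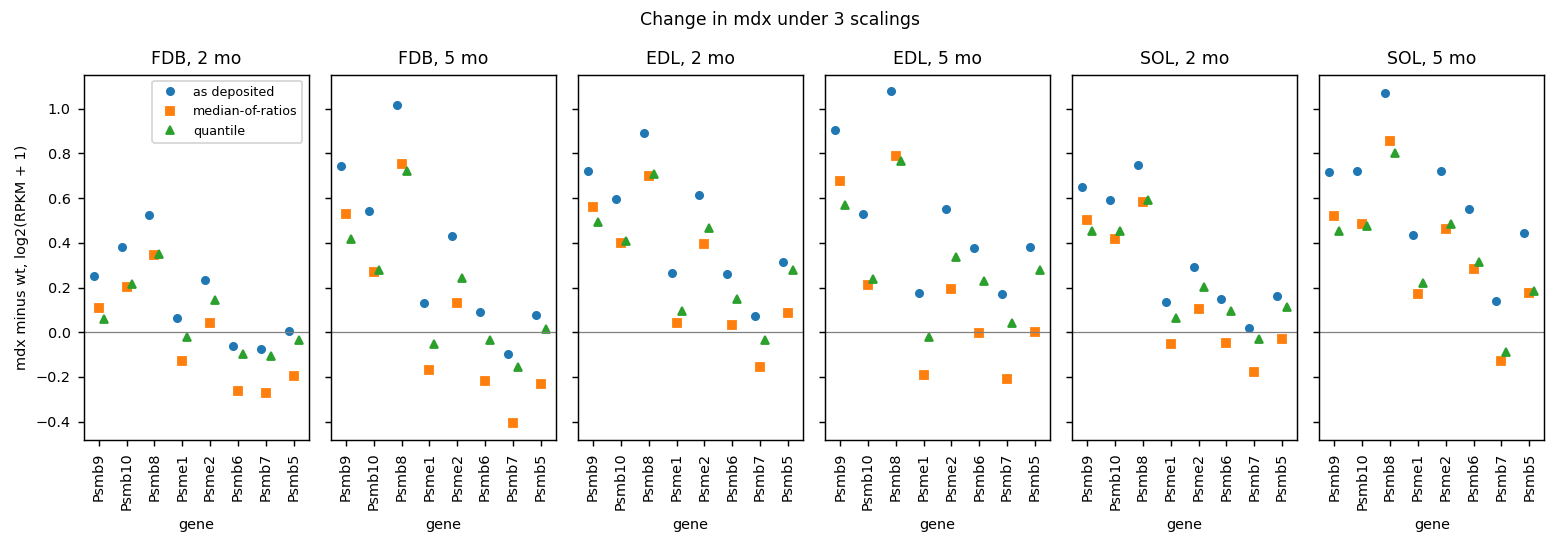
Difference of mean log2 value, mdx minus wt, of Psmb5 to Psmb10, Psme1 and Psme2 in each muscle and age (vertical axis) under RPKM, median-of-ratios scaling and quantile normalization. Psmb8, Psmb9 and Psmb10 stay above 0 under all 3, with Psmb9 in FDB at 2 months lowest (0.11 with median-of-ratios scaling and 0.06 with quantile normalization), while Psmb7 lies between −0.41 and −0.13 with median-of-ratios scaling.

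Whether the mdx difference changed with age was tested within each muscle. In FDB 0 of the 47 members passed by limma (2 at an unadjusted p of 0.05), against 1.34% of all genes, and in EDL 0 passed (4 unadjusted) against 5.92%. The members nearest to passing were Psmd1 in FDB (−0.15, adjusted p = 0.140) and Psmd9 in EDL (0.22, adjusted p = 0.0557). In SOL 12 passed, 11 with a larger difference at 5 months and Psmd11 with a lower one, against 14% of all genes. Psmb6 changed most by p (0.40, adjusted p = 0.003), then Psmc5 (0.22, 0.0066) and Psma2 (0.32, 0.00906). The others were Psma3, Psmb5, Psmc3, Psmc3ip, Psmd8, Psmd9, Psmd13 and Psmg3.

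The count in SOL followed the ID block. With block 2 of mdx alone 29 members passed, among them all 12, and 32% of all genes. With block 3 alone 2 passed, Psmb6 (0.20, adjusted p = 0.0477) and Psmc1 (−0.24, adjusted p = 0.0446), of which 1 was among the 12, and 9.03% of all genes. Psmb5 was 0.42 (adjusted p = 2.26e-05) in block 2 and 0.10 (adjusted p = 0.453) in block 3. With median-of-ratios scaling 1 member was higher and 1 lower in SOL, and with quantile normalization 1 and 2. Without wt library ns25 the count was 5 and without mdx library ns58 it was 18.

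Whether the mdx difference varied between muscles was tested by an F test. At 2 months 1 member passed, Psme4 (adjusted p = 0.0209; 10 members at an unadjusted p of 0.05), against 6.02% of all genes. Its values were 0.10 in FDB, −0.34 in EDL and −0.11 in SOL. At 5 months 21 members passed, against 37.1% of all genes. Psmc5 had the smallest p (adjusted p = 8.04e-05), with 0.05 in FDB, 0.30 in EDL and 0.31 in SOL, followed by Psmc1 (0.000179) and Psmb6 (0.000182). Psmb6 was 0.09, 0.38 and 0.55, and Psmc1 was −0.23, 0.24 and 0.04. With block 3 alone, a setting chosen after the data were seen, 32 members passed, 20 of them among the 21, against 44.8% of all genes. There Psmb5, Psmb6 and Psmb7 had adjusted p of 1.28e-06, 5.74e-05 and 6.61e-08.

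The muscles were also compared in wt. Between FDB and EDL 38 members differed at 2 months and 41 at 5 months, against 71.7% and 72.7% of all genes, and FDB was higher in 37 and 40. Between FDB and SOL 37 and 36 differed (70.3% and 68.5%), with FDB higher in 32 and 32. Between SOL and EDL 25 and 24 differed (52.3% and 54.4%), with SOL higher in 21 and 22 and lower in 4 and 2. Between FDB and EDL these were 80.9% and 87.2% of the 47 members. No test set the member shares against those of all genes, and the shares of all genes were not split by direction. No result about the members is drawn from them. Both the number and the split depended on scaling, since with median-of-ratios FDB was higher in 12 and 20 and lower in 14 and 7 against EDL, and higher in 7 and 20 and lower in 9 and 11 against SOL. SOL was then higher than EDL in 14 and 9 and lower in 8 and 15, and with quantile normalization FDB was higher than EDL in 23 and 26 and lower in 11 and 5. Quantile normalization put FDB above SOL in 22 and 29 members and below in 8 and 8, and SOL above EDL in 13 and 15 and below in 14 and 13. The all-gene median was 0.26 and 0.27 higher in FDB than in EDL and 0.20 and 0.18 higher than in SOL.

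The summed RPKM of all members other than Psmc3ip was 0.769% to 0.841% of all RPKM over the FDB group means, 0.601% to 0.651% in EDL and 0.657% to 0.691% in SOL. Among single members Psmb1 was higher in FDB than in EDL by 0.87 at 2 months (adjusted p = 6.03e-14) and Psmc1 by 0.99 at 5 months (adjusted p = 1.78e-17), and both stayed higher under the other scalings. Psmd4 was higher in FDB than in SOL by 0.66 and 0.78, also under every scaling. SOL stood below EDL for Psme4 by 0.69 and 0.67 at 2 and 5 months and above it for Psmd5 by 0.59 and 0.79. Psmb5, Psmb6 and Psmb7 were higher in FDB than in EDL by 0.17, 0.41 and 0.20 at 2 months and 0.24, 0.34 and 0.19 at 5 months, but with median-of-ratios scaling Psmb5 was lower at 2 months and Psmb7 lower at 5 months, and with quantile normalization Psmb7 was lower at both.

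The immunoproteasome genes did not share a single order of muscles. Over all groups the lowest mean was in wt FDB at 5 months for Psmb8 (2.31 RPKM) and Psmb9 (1.05 RPKM). For Psmb10 it was in wt EDL at 5 months (4.36 RPKM). Their partners are compared above between FDB and EDL, and most values here are against SOL, so the orders are not set on like pairs. In wt at 5 months Psmb9 was 0.951, 1.02, 1.05 and 1.18 RPKM in FDB and 1.53, 2.11, 2.27 and 2.85 in SOL, lower in FDB by 0.62 on the log2 scale (adjusted p = 0.00171) and lower in every FDB library. Psmb10 was lower in FDB than in SOL by 0.27 at 5 months (adjusted p = 0.0343), and higher in SOL than in EDL by 0.33 and 0.39 at 2 and 5 months. Psmb8 passed in no wt muscle comparison on RPKM, but was lower in FDB than in EDL at both ages under both other scalings (−0.38 at 2 months and −0.51 at 5 months in each). From 2 to 5 months in wt, 13 members changed in FDB (33.6% of all genes), 2 in EDL (23.8%) and 4 in SOL (17.3%). In FDB, where the leukocyte marker sum went from 228 to 287 RPKM at 2 months to 125 to 185 at 5 months, Psmb8 fell by 0.55 (adjusted p = 0.0155) and Psmb9 by 0.47 (adjusted p = 0.0346), Psmd9 fell and 10 other members rose. The part of those markers in the falls was not tested. The Psmb9 call was lost with both other scalings (−0.36 and −0.29), as was that of Psmd9 (−0.01 and −0.02), and the Psmb8 call with quantile normalization (−0.38) but not with median-of-ratios scaling (−0.42). With median-of-ratios scaling 27 rose and 1 fell in FDB, 19 and 0 changed so in EDL, and 8 and 0 in SOL, where the counts with quantile normalization were 23 and 0, 3 and 1, and 4 and 0. Without ns10 the FDB count was 8, without ns45 that of EDL was 0, and without ns28 that of SOL was 0. In EDL the 2 were Psma3 (lower) and Psmd8 (higher), and in SOL the 4 were Psmc1, Psmd2, Psmd4 and Psmd7 (all higher).

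Genes that work with the immunoproteasome were taken from lists of known members, and all 13 leukocyte markers moved with them as given above; the part of those cells was not tested. Of 11 tested genes that load peptide onto MHC class I, 9, 10, 10, 10, 9 and 9 rose, and 1 (Canx, a general chaperone of the endoplasmic reticulum) fell in SOL at 5 months. Their median change was 0.46, 0.79, 0.54, 0.78, 0.54 and 0.56, against the all-gene medians above. Of all tested genes 30%, 53.1%, 41.6%, 60.2%, 32.3% and 52.9% were higher. B2m, the light chain of class I, rose by 0.75, 1.13, 1.01, 1.07, 0.83 and 0.93, and Tap1, which shares its locus with Psmb9, by 0.81 to 0.90 in FDB at 5 months and EDL and by 0.57 and 0.70 in SOL (0.42 in FDB at 2 months, not past the threshold). With median-of-ratios scaling 4, 7, 10, 7, 7 and 8 rose and 0, 1, 0, 1, 0 and 2 fell.

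Of 14 genes of interferon gamma signalling, 2, 10, 10, 9, 5 and 7 rose and 1, 2, 2, 1, 0 and 0 fell, with medians of 0.25, 0.53, 0.66, 0.57, 0.32 and 0.42. Of all tested genes 30%, 53.1%, 41.6%, 60.2%, 32.3% and 52.9% were higher. The list's share of rises was thus below that of all genes in FDB at 2 months. In EDL at 5 months and in SOL at both ages it was near that share, and no result about the list is drawn there. With median-of-ratios scaling 2, 4, 9, 6, 4 and 6 rose and 1, 2, 2, 3, 1 and 3 fell. Irf8, a factor of myeloid cells, rose in all 6 comparisons, by 0.54 to 1.23. Irf1, the factor that drives Psmb9 in response to interferon, rose by 0.60 in FDB at 5 months, by 0.69 and 0.80 in EDL and by 0.50 in SOL at 5 months. Of 23 partners of the proteasome outside the symbol rule, 0, 1, 6, 10, 1 and 10 rose and 1, 1, 1, 2, 3 and 2 fell. In each comparison the partners rose in a smaller share than all genes did. Pomp, the maturation chaperone of the core, rose by 0.32 and 0.29 in EDL and by 0.27 in SOL at 5 months. With median-of-ratios scaling 0, 0, 0, 0, 0 and 4 of the partners rose and 9, 18, 11, 15, 9 and 12 fell.

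Not tested, for lack of signal, were Psma8, the alpha subunit of the testis, with a mean of 0.0294 RPKM and 11 libraries at 0; Psmb11, the thymus-specific beta subunit, at 0.351; and Psme2b, a near copy of Psme2, at 0.297.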

How the data were processed

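The authors extracted total RNA from whole muscles, isolated poly(A) RNA and made libraries with a Mondrian SP kit, per the labels' protocols. Partek 6.6, TopHat2 2.1.0 and CASAVA 1.8.2, with build mm10, are listed per the submitters' processing notes. The strand setting and the annotation were not given in the sources used here. The authors' deposited table gives RPKM per gene and library, with the group of each of the 55 libraries per the file headers. Their deposited comparison table was not used.

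Depth was read from the steps of low RPKM values. Over 3261 genes spanning under 1500 bases, 74.2% to 84.6% of values were whole reads within 0.1 read, and estimated depth was 20.5 to 66.8 M reads (median 50.3). This is approximate, so no count test was made. Libraries of a group correlated at Pearson r 0.986 to 0.999 over 108 pairs across genes, and 0 pairs were identical.

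The 12 groups were fitted together with limma 3.58.1 in R 4.3.3 (eBayes with trend) on log2(RPKM + 1), over the 12541 genes that averaged 0.5 RPKM or more, with Benjamini-Hochberg adjustment over all genes of a contrast and a threshold of 0.05. Scripts were tested on simulated data. Alternatives were median-of-ratios scaling, quantile normalization, a pseudocount of 0.1, no filter, leaving out each library, and single ID blocks. Members and lists were chosen with earlier results of these data known. Named members are Psmb5 to Psmb10, Psme1 and Psme2, the 3 largest rises and falls of each mdx comparison among those with at least 1 RPKM in a group compared, members past the threshold with one sign in at least 5 of 6, the 3 smallest p of each other result and untested members, with 2 to 4 passing genes of each other list. Others named for a role were chosen after their values were seen. Sequences are from RefSeq, and gene positions from GENCODE M21.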

Additional observations from a re-analysis of the deposited data

Results flagged for a closer look

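In 3 of 99 groups and quantities tested, 1 library stood apart from the others of its group, where chance gives about 1 in 20. Psmb6 was 69.38 RPKM in wt SOL library ns29 at 5 months, against 60.92 to 61.98 in the other libraries. Psmb10 and Psme2 were 6.097 and 19.55 RPKM in mdx FDB library ns06 at 5 months, against 7.409 to 8.196 and 23.96 to 26.62.

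The mdx difference in SOL changed between 2 and 5 months for several named members in a test of the difference itself by limma. The adjusted p was 0.003 for Psmb6, 0.0066 for Psmc5, 0.00906 for Psma2, 0.0251 for Psmd9, 0.0254 for Psmd13, 0.0333 for Psmc3ip, 0.0352 for Psmb5, 0.0395 for Psmd11 and 0.0486 for Psmd8. Of these, Psmb6 alone passed with mdx libraries of ID block 3 only.

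The mdx difference varied between the muscles at 2 months for Psme4 (adjusted p = 0.0209). At 5 months it varied for Psmc5 (8.04e-05), Psmc1 (0.000179), Psmb6 (0.000182), Psmd4 (0.000584), Psmd8 (0.000664), Psmd1 (0.00142), Psmd12 (0.00149), Psmb5 (0.0019), Psmd13 (0.00252), Psmb7 (0.00528), Psmd3 (0.00623), Psmd11 (0.012), Psmb1 (0.0139) and Psmf1 (0.021), each an adjusted p from limma.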

How the results depend on the processing

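Members and calls were recomputed under 3 scalings, another pseudocount, no filter, without each library and within ID blocks. With median-of-ratios scaling the number of members that rose was 0 (FDB at 2 months), 3 (FDB at 5 months), 7 (EDL at 2 months), 3 (EDL at 5 months), 5 (SOL at 2 months) and 9 (SOL at 5 months). The number that fell was 13 (FDB at 2 months), 33 (FDB at 5 months), 8 (EDL at 2 months), 23 (EDL at 5 months), 10 (SOL at 2 months) and 12 (SOL at 5 months). The number past the threshold was 1 (genotype by age, EDL), 2 (genotype by age, SOL), 16 (wt FDB minus SOL, 2 months), 27 (wt FDB minus EDL, 5 months), 28 (wt 5 minus 2 months, FDB), 19 (wt 5 minus 2 months, EDL) and 8 (wt 5 minus 2 months, SOL). The log2 difference turned below 0 for Psmb5 at −0.20 (FDB 2), −0.23 (FDB 5) and −0.03178 (SOL 2), Psme1 at −0.13 (FDB 2), −0.17 (FDB 5), −0.19 (EDL 5) and −0.05335 (SOL 2), Psma5 at −0.06055 (FDB 2), −0.14 (FDB 5), −0.06516 (EDL 5) and −0.06224 (SOL 5), Psmd13 at −0.10 (FDB 2), −0.16 (FDB 5) and −0.03523 (SOL 2), Psmb6 at −0.22 (FDB 5), −0.001856 (EDL 5) and −0.04625 (SOL 2), Psmd8 at −0.01349 (FDB 5) and −0.0618 (EDL 5), Psmd5 at −0.008355 (FDB 5) and −0.04318 (SOL 5), Psmb7 at −0.16 (EDL 2), −0.21 (EDL 5), −0.18 (SOL 2) and −0.13 (SOL 5) and Psmd10 at −0.13 (EDL 5). With quantile normalization the number of members that rose was 1 (FDB at 2 months), 5 (FDB at 5 months), 16 (EDL at 2 months), 12 (EDL at 5 months) and 12 (SOL at 5 months). The number that fell was 3 (FDB at 2 months), 21 (FDB at 5 months), 3 (EDL at 2 months), 7 (EDL at 5 months), 2 (SOL at 2 months) and 12 (SOL at 5 months). The number past the threshold was 3 (genotype by age, FDB), 1 (genotype by age, EDL), 3 (genotype by age, SOL), 23 (wt 5 minus 2 months, FDB), 4 (wt 5 minus 2 months, EDL) and 3 (genotype by muscle, 2 months). The immunoproteasome minus constitutive difference was 0.29 (FDB at 2 months), 0.53 (FDB at 5 months) and 0.44 (SOL at 2 months). The log2 difference turned below 0 for Psmb5 at −0.03342 (FDB 2), Psme1 at −0.02242 (FDB 2), −0.05455 (FDB 5) and −0.02096 (EDL 5), Psmb6 at −0.03598 (FDB 5), Psmd13 at −0.001992 (FDB 5), Psmb7 at −0.03627 (EDL 2), −0.03106 (SOL 2) and −0.08913 (SOL 5), Psmd10 at −0.10 (EDL 5) and Psma5 at −0.002232 (SOL 5). With a pseudocount of 0.1 the number past the threshold was 1 (genotype by age, EDL). The immunoproteasome minus constitutive difference was 0.52 (FDB at 2 months), 0.98 (FDB at 5 months), 0.68 (SOL at 2 months) and 0.62 (SOL at 5 months). With no filter on low values the number of members that rose was 3 (FDB at 2 months). The number that fell was 0 (SOL at 2 months) and 2 (SOL at 5 months). The number past the threshold was 6 (genotype by age, SOL). With mdx libraries of ID block 1 alone the number of members that rose was 21 (FDB at 5 months) and 22 (EDL at 5 months). The number that fell was 1 (FDB at 5 months) and 0 (EDL at 5 months). The immunoproteasome minus constitutive difference was 0.51 (FDB at 5 months). The log2 difference changed sign for Psmb7 to 0.02372 (FDB at 5 months). With block 2 alone the number that fell was 3 (SOL at 5 months). The number past the threshold was 29 (genotype by age, SOL). With block 3 alone the number of members that rose was 21 (SOL at 5 months). The number that fell was 10 (FDB at 5 months). The number past the threshold was 4 (genotype by age, FDB), 2 (genotype by age, EDL), 2 (genotype by age, SOL) and 32 (genotype by muscle, 5 months). The log2 difference turned below 0 for Psmb5 at −0.01366 (FDB 5) and Psme1 at −0.12 (SOL 5). Leaving out 1 library at a time moved rises in FDB at 2 months to between 2 (without ns01) and 5 (without ns02), rises in SOL at 2 months to between 8 (without ns17) and 13 (without ns25), falls in FDB at 2 months to between 0 (without ns01) and 1 (without ns12), falls in SOL at 2 months to between 0 (without ns17) and 1 (without ns20), falls in SOL at 5 months to between 1 (without ns30) and 3 (without ns29), calls in genotype by age, EDL to between 0 (without ns33) and 2 (without ns40), calls in genotype by age, SOL to between 5 (without ns25) and 18 (without ns58), calls in genotype by muscle, 2 months to between 0 (without ns02) and 2 (without ns20), calls in wt 5 minus 2 months, EDL to between 0 (without ns45) and 3 (without ns41), calls in wt 5 minus 2 months, FDB to between 8 (without ns10) and 13 (without ns11) and calls in wt 5 minus 2 months, SOL to between 0 (without ns28) and 4 (without ns25). Psmb5 in FDB at 2 months then ran from −0.01002 to 0.03058, and was below 0 without ns01, ns02, ns10 or ns12. The block 3 value of genotype by muscle at 5 months was chosen after seeing the data. The cause of these moves was not tested. The direction of most constitutive members depends on scaling, while Psmb8, Psmb9 and Psmb10 stayed above 0 in every setting run. No paired analysis was possible because the table's columns carry library IDs and not the labels' replicate numbers. Depth is approximate, so counting error could not be set on single values.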
